A study of Mus musculus with 6 samples.

Results

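Fatty acid transporters and binding proteins were examined in the epididymal white adipose tissue (eWAT) of mice with lung cancer cachexia. The 9 genes were taken by symbol from the count table, which holds 54532 rows: Cd36, 5 members of the Slc27 family (Slc27a1, Slc27a2, Slc27a3, Slc27a4 and Slc27a6) and 3 members of the Fabp family (Fabp3, Fabp4 and Fabp5). RNA sequencing covered 3 samples from cachectic and 3 from control mice, male C57BL/6 animals obtained at 6 to 10 weeks of age. The labels number the samples and do not say whether each came from its own mouse, so that values below are per sample. Cachectic mice had been inoculated under the skin with LLC cells, the Lewis lung carcinoma line of this strain, and had lost body weight. Tissues were taken on day 21. What the control mice were given is not stated in the labels, and no group bore a tumor without wasting, so that tumor and weight loss cannot be told apart.

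Long-chain fatty acids reach the adipocyte from lipoproteins in the capillary and leave it again during lipolysis. CD36 binds them at the cell surface of adipocytes and of capillary endothelium. The fatty acid transport proteins encoded by the Slc27 genes move them across membranes and activate them to acyl-CoA esters. The fatty acid binding proteins (FABPs) are small cytosolic carriers that ferry fatty acids between membranes, enzymes and the nucleus, and FABP4 is a classical product of mature fat cells.

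Libraries held 14928766 to 18855546 counts, and 16003 genes passed the filter on low counts. Control replicate 1 stood apart from the other libraries. It held 149 genes at 5 CPM (counts scaled to a common library size) or more that were under 0.5 CPM in each of the other 5 libraries, while no other library had more than 1 such gene. Among them were Cdh16, a cadherin of tubular epithelium, at 56.1 CPM, and Dnah5, a dynein chain of motile cilia, at 27.6 CPM. The adipocyte markers were abundant in both groups, with a summed level of 34904 to 50673 CPM in control mice and 27052 to 47507 CPM in cachectic mice.

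The 9 genes covered a wide range of levels. Per gene length, in FPKM (fragments per kilobase of gene, scaled to the library total), Fabp4 was highest in control mice at 1532 to 1967 FPKM, followed by Cd36 at 1046 to 1400 FPKM. Slc27a1 came next at 50.9 to 58.8 FPKM, ahead of Fabp5 at 31.2 to 35.4 FPKM and Slc27a4 at 11.2 to 13.1 FPKM. Each of these ranges lay apart from the next. Slc27a3 held 2.27 to 4.79 FPKM, and Slc27a2, Fabp3 and Slc27a6 had overlapping ranges at the bottom of the order. In cachectic mice, Slc27a1 had moved to 319 to 368 FPKM, still under Cd36 at 1084 to 1630 FPKM. The ranges of Fabp4 and Cd36 overlapped there, as did those of Slc27a4 and Slc27a3.

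**Figure D1:**
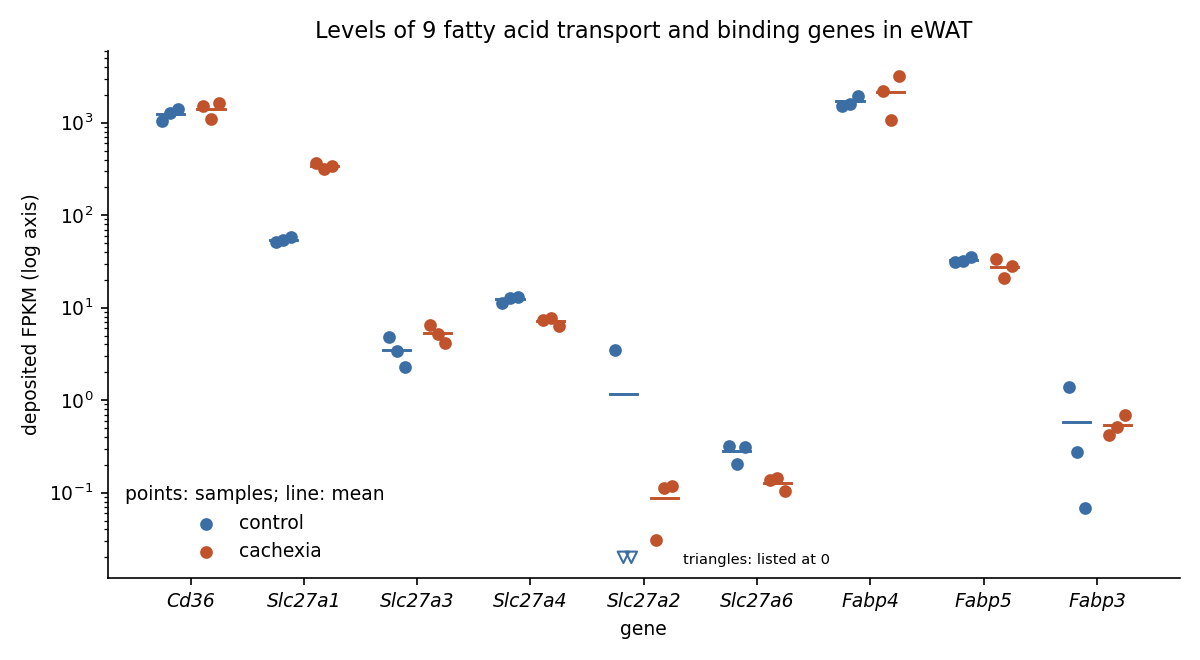
Deposited FPKM of the 9 genes on a log axis, with 1 point per sample, a line at each group's mean and triangles for libraries listed at 0. Slc27a1 lies between 50.9 and 58.8 FPKM in control mice and between 319 and 368 FPKM in cachectic mice, while Fabp4 and Cd36 stay at the top in both groups.

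Of the 9 genes, 6 passed the filter on low counts. Slc27a1 showed upregulated expression and Slc27a4 downregulated expression in cachectic mice. Cd36, Fabp4, Fabp5 and Slc27a3 did not pass the test. That is 1 of 6 genes in each direction, beside 9% called higher and 8.63% called lower among all genes of the fit. Control and cachectic values lay apart without overlap for 2 of the 6 genes, beside 40.5% of all genes tested. Leaving out control replicate 1 gave the same counts of 1 and 1. In whole tissue, fewer cells of a type and less RNA per cell cannot be told apart.

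**Figure D2:**
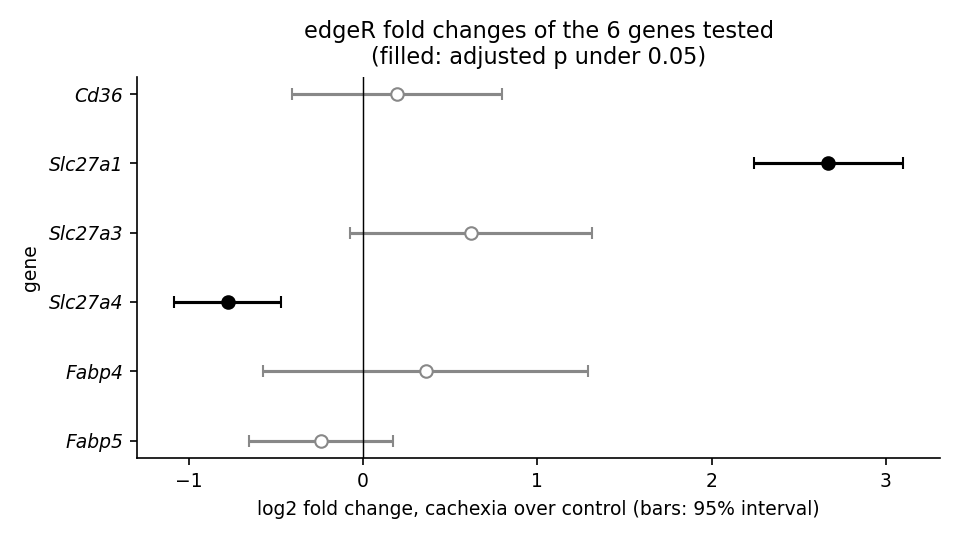
Difference in expression between cachectic and control mice for the 6 genes tested, as a log2 fold change, with 95% intervals from edgeR's quasi-likelihood fit and filled symbols where the adjusted p-value is under 0.05. Slc27a1 stands at 2.67 and Slc27a4 at -0.78, and the intervals of the other 4 genes include 0.

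Slc27a1 (ENSMUSG00000031808, chr8:71568882-71587302, plus strand, GRCm38) encodes FATP1, the transport protein of fat and muscle that responds to insulin. Control mice had 300.4, 316 and 347 CPM in replicates 1 to 3, and cachectic mice had 2193, 1906 and 2036 CPM. All cachectic values were far above all control values, and the lowest of them was 5.49 times the highest control value. The means were 321 ± 24.0 and 2045 ± 144 CPM (SD, n = 3 each), a 6.37-fold difference. The log2 fold change was 2.67 (standard error 0.19, 95% interval 2.24 to 3.10), with an adjusted p = 0.000878 from edgeR's quasi-likelihood test with Benjamini-Hochberg adjustment. By p-value, Slc27a1 ranked 9 among the 16003 genes. Among the 1440 genes with upregulated expression, 124 changed by at least as much, Slc27a1 included, and no other of these reached its mean level in cachectic mice. Its spread within groups was narrow, with a coefficient of variation of 7.46% in control and 7.02% in cachectic mice, beside medians of 9.77% and 14.3% over the 4376 tested genes with a mean of at least 50 CPM.

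FATP1 is also abundant in skeletal muscle and brown fat, so markers of both tissues were read in the same libraries. The muscle creatine kinase gene Ckm held 0 to 0.151 CPM and the fast myosin gene Myh4 had no count in any library. Ucp1, which defines brown adipocytes, held 0 to 0.0614 CPM. Other muscle genes were present. The skeletal actin gene Acta1 had 22.2, 35.9 and 39.1 CPM in control mice and 6.42, 5.83 and 57.2 CPM in cachectic mice, and the fast-fiber actinin gene Actn3 had 10.2, 5.56 and 10.1 CPM and 1.69, 2.83 and 1.25 CPM. Actn3 fell by 2.17 on the log2 scale (adjusted p = 0.0117, edgeR's quasi-likelihood test with Benjamini-Hochberg adjustment). Cox8b, a cytochrome oxidase gene of brown fat and muscle, had 2.66, 4.30 and 2.72 CPM in control mice and 5.37, 34.7 and 2.03 CPM in cachectic mice, highest in cachexia replicate 2. Of the 4 muscle genes and the 4 brown fat genes tested, 1 each was called, both lower. That is 25% of each list, beside 8.63% called lower among all genes tested. The brown fat gene was Dio2, which fell by 4.48 on the log2 scale. Its counts were 19, 28 and 36 in control mice and 1 in each cachectic library, so that the size of its fall is uncertain. Dio2 had 0.953, 1.60 and 2.04 CPM in control mice and 0.0583, 0.0614 and 0.0656 CPM in cachectic mice. The log2 fold changes of Cox8b, Cidea and Cox7a1 were 2.12, 0.27 and -1.37, without a call. The summed muscle list held 35.7 to 51.2 CPM in control and 9.86 to 60.1 CPM in cachectic mice, and the summed brown fat list held 6.97 to 9.28 and 2.82 to 42.6 CPM. Their part in the level of Slc27a1 was not tested.

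Slc27a4 (ENSMUSG00000059316, chr2:29802634-29817522, plus strand) encodes FATP4, a transport protein with acyl-CoA synthetase activity that is best known from intestine and skin. Control mice had 50.1, 56.9 and 58.6 CPM, and cachectic mice had 32.8, 35.3 and 28.5 CPM. All cachectic values were under all control values. The mean fell to 58.3% of control, and the log2 fold change was -0.78 (standard error 0.13, 95% interval -1.09 to -0.47), with an adjusted p = 0.00933 from edgeR's quasi-likelihood test with Benjamini-Hochberg adjustment. Of the 1381 genes with downregulated expression, 1051 fell by at least as much. The call was lost without control replicate 3, where edgeR's adjusted p was 0.055 at a log2 fold change of -0.74.

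Slc27a3 (ENSMUSG00000027932, chr3:90385239-90389938, minus strand) encodes FATP3, which acts mainly as an acyl-CoA synthetase. Control mice had 12.4, 8.77 and 5.89 CPM, and cachectic mice had 17.1, 13.6 and 10.9 CPM. The groups overlapped, since control replicate 1 lay above cachexia replicate 3. The log2 fold change was 0.62 (95% interval -0.07 to 1.31), with an adjusted p = 0.188 from edgeR's quasi-likelihood test with Benjamini-Hochberg adjustment.

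The makeup of the 5 Slc27 genes was thus read within each library. Slc27a5, a further gene of the family, was not among them. It had 3, 0 and 0 counts in control mice and 8, 5 and 7 counts in cachectic mice. Summed, the 5 genes held 70.8, 69.5 and 74.5 FPKM in control mice and 382, 332 and 351 FPKM in cachectic mice. That is a 4.96-fold difference of the means. Slc27a1 made up 72.0%, 76.6% and 78.9% of this sum in control mice and 96.3%, 96.0% and 97.0% in cachectic mice. The share of Slc27a4 went from 15.9%, 18.3% and 17.6% to 1.91%, 2.35% and 1.80%. For the sum and for both shares the groups did not overlap. The two-sided exact permutation test gave p = 0.1, the smallest value that 3 against 3 samples allow. Since Slc27a1 made up most of the sum, these separations largely restate its rise. The level of Slc27a4 itself fell to 58.3% of the control mean, far less than its share. The share of Slc27a3 was also lower in every cachectic sample, at 1.18% to 1.71% beside 3.04% to 6.77%, although its level was not.

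**Figure D3:**
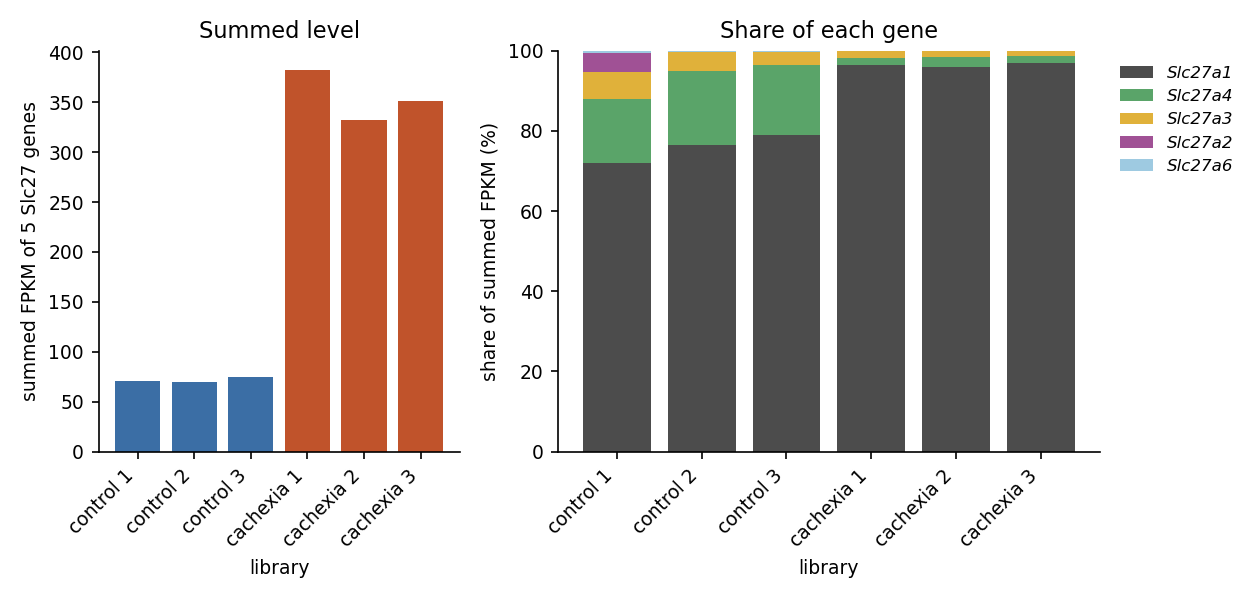
Summed FPKM of the 5 Slc27 genes per library (left, bars from 0) and the percentage of that sum held by each gene (right, stacked bars). Cachectic libraries hold 332 to 382 FPKM, of which Slc27a1 makes up 96.0% to 97.0%, and control libraries hold 69.5 to 74.5 FPKM.

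The sequences upstream of these genes are shown because Slc27a1 and Slc27a4 changed in opposite directions. RefSeq promoter windows (GRCm38.p6) were found for 6 of the 9 genes, 8 windows in all, with 3 alternative starts for Slc27a1. Gene-level counts do not tell which start was used. Each line gives the 250 bases before a start, 5′ to 3′, and capitals mark the CCAAT box, the GC box motif GGGCGG and the E-box motif CACGTG on either strand.
Slc27a1 first start, chr8:71568621-71568870, plus strand: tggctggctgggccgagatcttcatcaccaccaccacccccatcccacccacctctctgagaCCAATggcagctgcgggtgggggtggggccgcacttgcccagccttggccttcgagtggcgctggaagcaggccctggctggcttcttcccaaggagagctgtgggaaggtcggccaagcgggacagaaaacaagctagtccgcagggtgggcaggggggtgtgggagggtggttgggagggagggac
Slc27a1 middle start, chr8:71569347-71569596, plus strand: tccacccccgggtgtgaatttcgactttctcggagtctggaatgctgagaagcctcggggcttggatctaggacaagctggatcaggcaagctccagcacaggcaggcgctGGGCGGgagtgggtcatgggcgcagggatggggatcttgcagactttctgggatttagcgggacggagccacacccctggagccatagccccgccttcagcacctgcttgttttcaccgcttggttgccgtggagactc
Slc27a1 last start, chr8:71570344-71570593, plus strand: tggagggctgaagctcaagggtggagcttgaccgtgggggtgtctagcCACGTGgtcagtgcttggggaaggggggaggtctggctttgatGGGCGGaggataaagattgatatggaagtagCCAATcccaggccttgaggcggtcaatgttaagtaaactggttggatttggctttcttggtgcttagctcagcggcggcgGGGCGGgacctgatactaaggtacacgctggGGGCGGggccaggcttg
Slc27a4, chr2:29802384-29802633, plus strand: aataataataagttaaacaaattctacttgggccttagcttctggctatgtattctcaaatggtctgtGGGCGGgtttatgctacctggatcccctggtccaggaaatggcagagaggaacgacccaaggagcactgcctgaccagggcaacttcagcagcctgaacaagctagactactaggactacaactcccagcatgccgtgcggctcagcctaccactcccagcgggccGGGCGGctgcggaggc
The first Slc27a1 window held CCAAT at 188 to 184 bases before the start and no GGGCGG. The last held 3 copies of GGGCGG, with CACGTG at 202 to 197 bases before the start. The Slc27a4 window held GGGCGG at 182 to 177 and at 16 to 11 bases before the start. On either strand, CCAAT was found in 33.8%, GGGCGG in 32.7% and CACGTG in 6.02% of all 32851 windows of this length. AGGTCA, the core bound by nuclear receptors, was in none of these 4 windows and in 14.0% of all, but it was in those of Cd36 and Slc27a2. A pair of direct AGGTCA copies spaced by 1 base, the DR1 element of PPAR and RXR dimers, was in no window of the 6 genes and in 11 of all 32851 windows. TATAAA was likewise in none of the 8 windows and in 12.4% of all. These letters are a description of the windows and mark no site in use.

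Cd36 (ENSMUSG00000002944, chr5:17781690-17888801, minus strand), the main surface receptor for long-chain fatty acids in fat, stood next to Fabp4 in level in both groups. Control mice had 3794, 4689 and 5089 CPM, and cachectic mice had 5557, 3988 and 5996 CPM. The groups overlapped, with cachexia replicate 2 inside the control range. The log2 fold change was 0.20 (standard error 0.26), with an adjusted p = 0.637 from edgeR's quasi-likelihood test with Benjamini-Hochberg adjustment. Its 95% interval of -0.41 to 0.80 leaves room for changes in either direction.

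Fabp4 (ENSMUSG00000062515, chr3:10204088-10208576, minus strand), the adipocyte FABP, differed far more among cachectic than among control samples. Control mice had 6952, 7350 and 8940 CPM, and cachectic mice had 10083, 4925 and 14790 CPM. The cachectic values lay on both sides of the control range, with a 3.00-fold span and a coefficient of variation of 49.7% beside 13.6% in control mice. The log2 fold change was 0.36 (95% interval -0.58 to 1.29), with an adjusted p = 0.575 from edgeR's quasi-likelihood test with Benjamini-Hochberg adjustment, and it was -0.04 without cachexia replicate 3. The same sample, cachexia replicate 2, was lowest for Cd36, Fabp4 and Fabp5 within its group. In that library the mean log2 CPM of the 10 adipocyte markers was 9.96, beside 10.98 and 10.69 in the other cachectic libraries, and the mean of the 10 endothelial markers was 8.30, beside 7.97 and 7.77. The part of these markers in the spread was not tested.

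Fabp5 (ENSMUSG00000027533, chr3:10012548-10016607, plus strand) encodes the epidermal FABP, which adipocytes, macrophages and endothelium also make. Control mice had 113, 116 and 128 CPM, and cachectic mice had 122, 77.1 and 103 CPM. Cachexia replicate 1 lay within the control range, while replicates 2 and 3 lay under it. The log2 fold change was -0.24 (95% interval -0.66 to 0.17), with an adjusted p = 0.381 from edgeR's quasi-likelihood test with Benjamini-Hochberg adjustment. Fabp4 held 97.9% to 98.2% of the summed FPKM of the 3 Fabp genes in control mice and 98.0% to 99.1% in cachectic mice (two-sided exact permutation p = 0.3). Fabp4 and Fabp5 lie in a cluster on chromosome 3 with Pmp2, Fabp9 and Fabp12, their starts 191.54 kb apart in file coordinates. Pmp2, Fabp9 and Fabp12 held 1.35 CPM or less in every library.

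Ratios between genes do not depend on the size factor of a library and were taken per gene length. Slc27a1 stood at 4.53, 4.19 and 4.48 times the level of Slc27a4 in control mice and at 50.5, 40.8 and 54.0 times in cachectic mice. Relative to Cd36, Slc27a1 held 0.0487, 0.0414 and 0.042 in control mice and 0.243, 0.294 and 0.209 in cachectic mice. Both ratios lay apart between the groups, with differences of 3.45 and 2.49 on the log2 scale. The ratio of Slc27a3 to Slc27a4 also lay apart, at 0.173 to 0.426 in control and 0.659 to 0.894 in cachectic mice. Fabp4 and Cd36 kept no such separation, with ratios of 1.25 to 1.47 and of 0.988 to 1.97. The two-sided exact permutation p was 0.1 for each of the 3 ratios that lay apart, 0.9 for Fabp4 to Cd36 and 0.2 for Fabp5 to Fabp4.

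**Figure D4:**
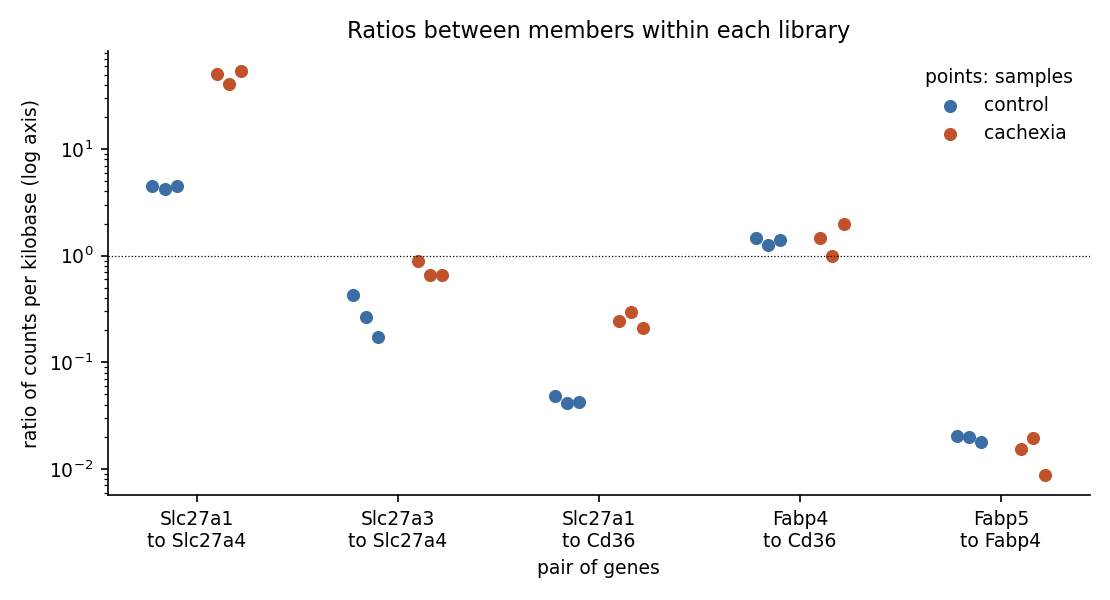
Ratios of counts per kilobase between pairs of genes in each library, on a log axis with a dotted line at 1. The ratio of Slc27a1 to Slc27a4 lies between 4.19 and 4.53 in control mice and between 40.8 and 54.0 in cachectic mice, while those of Fabp4 to Cd36 overlap.

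Fat cells and capillaries both express several of these genes, and the markers of these cells moved differently. For the 10 adipocyte markers the mean log2 CPM was 10.96 ± 0.20 in control and 10.55 ± 0.52 in cachectic mice (SD, n = 3, two-sided exact permutation p = 0.2). Cidec, Pnpla2 and Adig rose and Lep fell among them, 3 and 1 of 10, beside 9% and 8.63% of all genes tested. For the 10 endothelial markers the mean log2 CPM was 7.23 ± 0.08 in control and 8.01 ± 0.27 in cachectic mice, and the groups did not overlap (exact permutation p = 0.1). Pecam1, Cdh5, Cldn5, Esam and Egfl7 rose among them, 5 of 10, beside 9% of all genes tested. Levels were also taken relative to the adipocyte mean within each library. So taken, Slc27a1 was higher in cachectic mice by 3.08, Fabp4 by 0.64 and Cd36 by 0.60 on the log2 scale. Each lay without overlap (exact permutation p = 0.1 each), although the CPM values of Fabp4 and Cd36 overlapped. With the median of the adipocyte markers in place of their mean, the differences of Fabp4 and Cd36 were 0.29 and 0.24. That of Fabp4 to the mean was 0.36 without cachexia replicate 3. Fabp5 relative to the adipocyte mean differed by 0.15 and overlapped (exact permutation p = 0.3), and the sign turned with the median, at -0.21. Taken relative to the endothelial mean, Slc27a1 was higher by 1.88, while Slc27a4 differed by -1.56 and Fabp5 by -1.05. These were again without overlap (exact permutation p = 0.1 each). Slc27a4 relative to the adipocyte mean differed by -0.35 and overlapped (exact permutation p = 0.4). This difference was -0.15, -0.71 and -0.20 without cachexia replicates 1, 2 and 3, and -0.71 with the median of the markers. Cd36 and Fabp4 relative to the endothelial mean differed by -0.60 and -0.56, with overlapping groups. Without cachexia replicate 2 these differences were -0.28 and 0.02, and without cachexia replicate 3 that of Fabp4 was -1.04. Slc27a3 differed by 1.05 relative to the adipocyte and by -0.16 relative to the endothelial mean, with overlap in both (exact permutation p = 0.2 and 0.6). Neutrophil and erythroid markers were higher in cachectic mice as well, with summed levels of 12.0 to 15.5 against 209 to 784 CPM and of 252 to 451 against 1331 to 2850 CPM. Of the 10 macrophage markers, Cd163 rose and Mrc1 fell, 10% in each direction, beside 9% and 8.63% of all genes tested. The summed level of the macrophage markers was 1543 to 1934 CPM in control and 1252 to 1935 CPM in cachectic mice. The part of these cells in the 9 genes was not tested.

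The remaining 3 genes stayed under the filter. Slc27a2, which encodes the FATP2 of liver and kidney, had 263, 0 and 0 counts in control mice and 2, 7 and 7 counts in cachectic mice. It was high in control replicate 1 alone, at 13.2 CPM, and a count of 0 in control replicates 2 and 3 allows up to 0.172 and 0.170 CPM. It overlaps Gm26697 on the opposite strand, which had no count in any library. The genes whose pattern was most like it, Rbfox3, Ubxn10, Plekhh1 and Odf3b, were chosen after their values were seen and shared the high value in that library, at 11.6 to 19.8 CPM. Hnf4a, a regulator of liver and kidney genes, held 26.8 CPM there and at most 0.328 CPM elsewhere. Markers of the epididymal epithelium held 4.26 CPM or less in sum in every library, with the highest sum in control replicate 1. Most of that sum came from Adam7, at 3.06 CPM there, 0.991 CPM in cachexia replicate 1 and 0.229 CPM or less elsewhere. The part of epididymal tissue in the level of Slc27a2 was not tested. Without a filter, the adjusted p of Slc27a2 was 0.183 in edgeR's quasi-likelihood test with Benjamini-Hochberg adjustment.

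Fabp3, the FABP of heart and muscle, had 23, 4 and 1 counts in control mice and 6, 7 and 9 counts in cachectic mice. Control replicate 1 was again the highest library and control replicates 2 and 3 were the lowest, so that the cachectic values lay inside the control range. It overlaps Gm10570, with at most 1 count, and Zcchc17, with 408 to 765 counts, both on the opposite strand. It also shares a run of 256 identical bases with the pseudogene Fabp3-ps1, so that its few counts are uncertain. Slc27a6, the FATP6 of heart, had 16, 9 and 14 counts in control mice and 6, 6 and 4 counts in cachectic mice. These values did not overlap, but without a filter its adjusted p was 0.395 in edgeR's quasi-likelihood test with Benjamini-Hochberg adjustment.

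The other 6 genes share less sequence. Fabp5 has 68 identical bases in a row with the pseudogene Fabp5l2, which held at most 1 count. Slc27a1 and Slc27a4 have 26 identical bases in a row at most and Fabp4 and Fabp5 have 16. No annotated gene overlaps Slc27a1, Slc27a3, Slc27a4, Cd36, Fabp4 or Fabp5. The 3 annotated pseudogenes of the Fabp family held 0 to 3 counts in every library.

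Further genes of fatty acid handling were read from 7 lists of 92 genes, of which 74 were tested. Among these, 11 were higher (14.9%, beside 9% of all genes) and 9 lower (12.2%, beside 8.63%), and their median log2 fold change was -0.05, beside 0.00 over all genes. Of the 20 calls, 8 held in all 6 fits that left out 1 library. Among these were the higher genes Acot4, Thbs2, Gpihbp1 and Flt1 and the lower genes Cav1, Cav2 and Angptl8. The other 12 were lost without control replicate 3, which left 4 higher and 4 lower genes. They were Rbp7, Acsl3, Acss2, Acot13, Scarb1, Lypla1, Thbs1, Rxrb, Rxrg, Angptl4, Tcf15 and Slc22a5. Of these 12, 4 were also lost without control replicate 1, 8 without control replicate 2, and 6, 3 and 6 without cachexia replicates 1, 2 and 3.

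Among relatives of the Slc27 and Fabp families, 2 of 13 genes were tested. Rbp7, a retinol binding protein of capillary endothelium and fat, had 11.5, 12.2 and 10.9 CPM in control mice and 103, 14.2 and 260 CPM in cachectic mice. Cachexia replicate 2 lay close to the controls, and the call (adjusted p = 0.031, edgeR's quasi-likelihood test with Benjamini-Hochberg adjustment) was lost in 5 of the 6 fits without 1 library, with adjusted p up to 0.109. Fabp1, the liver FABP, had no count in control mice and 1, 6 and 20 counts in cachectic mice.

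Acyl-CoA synthetases trap fatty acids as CoA esters and thioesterases release them. Of 19 tested genes for such enzymes and acyl-CoA binding proteins, 2 rose and 2 fell (10.5% each, beside 9% and 8.63% of all genes). The peroxisomal thioesterase gene Acot4 had 6.22, 9.51 and 9.63 CPM in control mice and 47.9, 54.3 and 61.5 CPM in cachectic mice, and it rose by 2.69 on the log2 scale (standard error 0.21). Acot13 rose by 0.69, Acsl3 fell by 0.86 and Acss2, the cytosolic acetyl-CoA synthetase gene, fell by 1.93 on the log2 scale. These calls held in 3, 1 and 3 of the 6 fits that left out 1 library. Acsl1, the chief synthetase gene of fat cells, had 512, 930 and 1016 CPM in control mice and 1968, 1485 and 1012 CPM in cachectic mice, with an adjusted p = 0.113 from edgeR's quasi-likelihood test with Benjamini-Hochberg adjustment. Cachexia replicate 3 lay within the control range, and the other cachectic samples lay above it. Acsbg1, another synthetase gene, had 113 CPM in control replicate 1 and 0.737 to 2.72 CPM in the other 5 libraries.

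Of the 14 tested relatives and partners of CD36, 3 rose and 3 fell (21.4% each, beside 9% and 8.63% of all genes). Scarb1, the HDL receptor of the CD36 family, rose by 1.39 on the log2 scale, and the CD36 ligand genes Thbs1 and Thbs2 rose by 3.39 and 3.10. Cav1, which encodes the coat protein of caveolae, had 3153, 3463 and 3967 CPM in control mice and 1248, 685 and 989 CPM in cachectic mice. It fell by 1.86 on the log2 scale (standard error 0.27), and Cav2 fell by 1.53. Lypla1, which encodes a depalmitoylase, fell by 0.47, a call that held in 1 of the 6 fits without 1 library.

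Of the 14 tested genes for the supply of fatty acids from lipoproteins, 3 rose and 3 fell (21.4% each, beside 9% and 8.63%). Gpihbp1, which carries lipoprotein lipase to the capillary lumen, rose by 1.58 on the log2 scale, Flt1, the VEGF-B receptor gene, by 1.21 and Angptl4, which encodes a lipase inhibitor, by 1.23. Angptl8 fell by 3.27 and Tcf15, which encodes a transcription factor of capillaries, fell by 0.84. The calls of Angptl4 and Tcf15 held in 1 and 2 of the 6 fits without 1 library. Lpl, the lipase gene itself, had a log2 fold change of -0.81 with an adjusted p = 0.137 from edgeR's quasi-likelihood test with Benjamini-Hochberg adjustment.

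Among 15 tested nuclear receptors and partners, Rxrb rose by 0.78 and Rxrg fell by 1.19 on the log2 scale. That is 6.67% in each direction, beside 9% higher and 8.63% lower among all genes. These calls held in 5 and 2 of the 6 fits without 1 library. Pparg, the receptor that drives Cd36 and Fabp4 in fat cells, had 253, 309 and 349 CPM in control mice and 204, 333 and 209.9 CPM in cachectic mice, overlapping values with an adjusted p = 0.425 from edgeR's quasi-likelihood test with Benjamini-Hochberg adjustment. In the carnitine shuttle, 1 of 7 tested genes rose (14.3%, beside 9% of all genes), the carnitine carrier gene Slc22a5, by 0.76. Of the genes listed under fatty acid receptors at the membrane, Gprc5b, Ffar2 and Ffar4 were tested. Gprc5b was listed although it is not an established fatty acid receptor. The log2 fold changes of Gprc5b, Ffar2 and Ffar4 were 0.32, 0.13 and -0.37. Their adjusted p was 0.132 to 0.867 from edgeR's quasi-likelihood test with Benjamini-Hochberg adjustment.

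**Figure D5:**
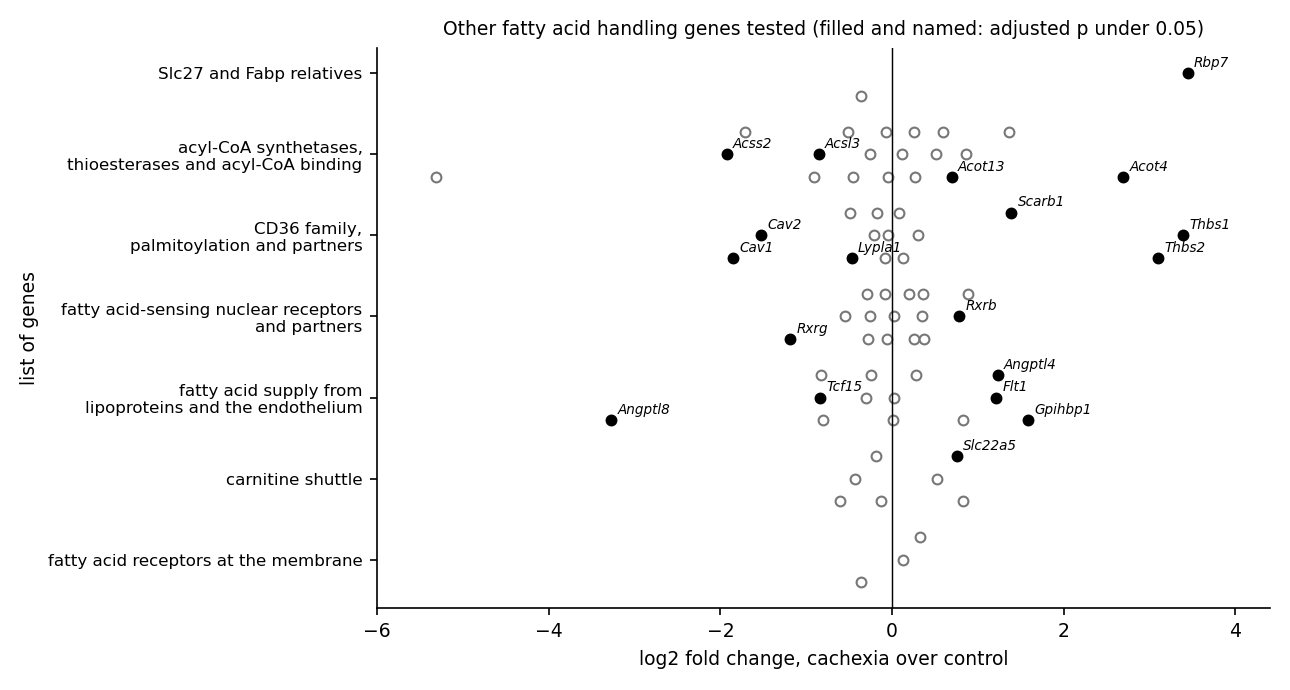
Difference in expression between cachectic and control mice, as a log2 fold change, for tested genes of the 7 lists, 1 point per gene except for 1 gene that is not shown, filled and named where edgeR's adjusted p-value is under 0.05. Filled points lie on both sides of 0, from -3.27 for Angptl8 to 3.44 for Rbp7.

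By correlation of log2(CPM + 0.5) over the 6 libraries, the genes most like Slc27a1 were Actr8 (Pearson r = 0.999) and Sdcbp2 (r = 0.998), and those most like Slc27a4 were Col15a1 and Adam19 (r = 0.999 each). With the difference between groups as their main variation, 428 protein-coding genes had an r above 0.95 with Slc27a1. Slc27a1 and Slc27a4 had an r of -0.954, and Cd36 and Fabp4 an r of 0.895. These values describe 6 libraries that share their group difference. Around Slc27a1, 13 tested genes lay within 100 kb, of which 3 were higher (Plvap, Jak3 and Nxnl1) and 2 lower (Dda1 and Ano8) by the same edgeR test, beside 9% higher and 8.63% lower among all genes. Around Slc27a4, 2 of 6 tested genes were lower (Trub2 and Cercam).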

How the data were processed

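RNA from 3 eWAT samples of cachectic and 3 of control mice was sequenced after NEBNext Ultra library preparation. The authors deposited raw counts per gene (featureCounts 1.5.0-p3, per the submitters' processing notes, which also name DESeq2 1.16.1 and mm9) and FPKM values, which the authors scaled by gene length and library total. The deposited coordinates were those of GRCm38: all 9 genes matched GENCODE M21. Columns of the authors' own fold changes and p-values were not used. The labels do not say whether each sample came from its own mouse, so p-values measure the spread between these samples.

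Counts were filtered (filterByExpr), scaled (TMM) and tested on all 16003 genes with edgeR 4.0.16 (glmQLFit, glmQLFTest, Benjamini-Hochberg, threshold 0.05) in R 4.3.3, with no covariate. The CPM values carry the TMM factors. In data simulated for this comparison, with the same relative spread for every gene, 199 of 200 genes shifted by 2 on the log2 scale were recovered. There were 7 false calls. Smaller shifts and an outlying library were not simulated. Single values were compared by two-sided exact permutation tests. Shares used FPKM, and ratios used counts per kilobase or log2(CPM + 0.5). A count of 0 allows up to 3 counts. Such limits cover counting error only.

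Named genes were the 9 members, list genes past the threshold (up to 4 in each direction), the 2 genes most correlated with each called member, Fabp pseudogenes and genes overlapping a member. Other genes named with their values were chosen after these were seen. The values of 1 list gene are not reported here, although counts include it. Members and lists were chosen with earlier results of these data known. Other size factors, filters, tools (DESeq2 1.42.0, limma 3.58.1), FPKM, left-out libraries and a replicate block were tried.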

Additional observations from a re-analysis of the deposited data

How the results depend on the processing

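Slc27a1 passed the test under each of the 17 alternatives, with log2 fold changes of 2.62 to 2.73 and adjusted p up to 0.00949. Slc27a4 kept its direction in all 17, from -0.84 to -0.69. It was not called without control replicate 3 (edgeR's adjusted p = 0.055) or where a change of at least 1 on the log2 scale was asked for, since its own was -0.78, which left 0 lower members under both. Without 1 library, its log2 fold change ranged from -0.84 to -0.69 and the count of lower members from 0 to 1. Fabp4 ranged from -0.041 without cachexia replicate 3 to 0.69 without cachexia replicate 2, so that its direction changed. The other genes tested kept theirs and were never called.

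For the lists, leaving out 1 library gave 4 to 12 higher and 4 to 8 lower genes, and DESeq2 gave 17 higher. The cause was not tested. Same-numbered samples did not vary together (correlations of deviations of -0.0031, -0.011 and 0.0085), so the numbers were not taken as pairs. With a replicate block, the adjusted p was 0.00572 for Slc27a1 and 0.0287 for Slc27a4, and 5 list genes were lower.

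With the median in place of the mean of the adipocyte markers, the log2 differences were 2.73 for Slc27a1, 0.24 for Cd36, 0.29 for Fabp4 and -0.21 for Fabp5, which was 0.15 with the mean. With the median of the endothelial markers, that of Slc27a4 was -1.77. Leaving out 1 library turned the sign of 4 ratios, whose differences ranged from -1.04 to 0.02 for Fabp4 to the endothelial mean, from -0.37 to 0.06 for Slc27a3 to the endothelial mean, from -0.20 to 0.30 for Fabp4 to Cd36 and from -0.54 to 1.81 for Fabp3 to Fabp4 (0.63 with all libraries). Over all genes, the count called was 2821, between 828 without control replicate 3 and 3648 with DESeq2. Beyond that, 3 samples a group and few counts for Slc27a2, Slc27a6 and Fabp3 limit what could be detected.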
